A study of Mus musculus with 8 samples.

Results

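The genes described here encode the non-muscle actins, the proteins that bind, cut, cap, cross-link or branch actin filaments, and the proteins of focal adhesions, together with the transcription factor Srf. They are 49 genes grouped by function and chosen with earlier results of these data known, so their directions are not independent evidence. A gene was represented by the probe sets annotated with its symbol alone. Of the 49 genes 45 had such a probe set among the 22690 on the array, and all 45 were bright enough to be tested, against 8352 tested genes in all. Ptk2, Myh10 and Actr2 had no probe set of 1 symbol in the annotation used, and Arpc1b shared its probe sets with another symbol, so these 4 genes were not analysed here. Ezr was listed under its older symbol Vil2.

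C2C12 is an established mouse myoblast line, whose cells leave the cell cycle and become myotubes when serum is lowered. All cultures differentiated in 2% horse serum, with feeds on days 0, 2 and 4. Control myotubes were then re-fed every 48 h, starved myotubes were not re-fed for 4 days, and total RNA was taken from both on day 8. Each array held 1 RNA sample, with the letters A to D for control and E to H for starved samples. Genotype and treatment agent did not differ between the groups: both were the same line in the same medium, and they differed in re-feeding. Whether the 4 samples of each group came from separate cultures is not stated in the labels. The p-values therefore reflect only how far these samples spread, and that spread may be technical. All samples come from 1 line grown in dishes, without the nerve, load or matrix of a muscle.

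Actin exists as monomers and as filaments, and cells turn the filaments over continuously. Profilins and beta-thymosins hold monomers, cofilins and gelsolin cut filaments, capping proteins close filament ends, the Arp2/3 complex starts branches, and alpha-actinins, filamins and tropomyosins bundle or decorate filaments into stress fibres anchored at focal adhesions. Srf, with the monomer-sensing cofactors Mrtfa and Mrtfb, drives transcription of many of these genes through a DNA element named the CArG box. In differentiating muscle cells this non-muscle cytoskeleton is known to give way in part to sarcomeric actin and its partners.

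Of the 45 tested genes 24 fell in starved myotubes and none rose (limma, Benjamini-Hochberg adjusted p under 0.05). That is 53.3% lower, where 6.94% of all tested genes were lower, 4.25% were higher and 11.2% were called in either direction. The 4 control and 4 starved arrays did not overlap for 25 of the 45 genes (55.6%), all with starved below control, against 18.5% of all tested genes, 10.2% lower and 8.23% higher. Log2 differences (starved minus control) were below 0 for 38 of the 45, against 47.7% of all tested genes. The median log2 difference was -0.37 for the 45 genes and 0.015 for all tested genes, and the members ranged from -1.86 (Csrp2) to 0.26 (Flnc). A fall of at least 2-fold with an adjusted p under 0.05 was seen for 4 of the 45, Csrp2, Flna, Tpm4 and Capg, against 1.39% of all tested genes. Of the 45 members 43 had a probe set above the 60th percentile of brightness, and with testing limited to such probe sets 58.1% of these 43 and 15.9% of all genes were called. Over the 24 called genes the standard deviation of the 4 log2 values had a median of 0.12 in control and 0.14 in starved arrays.

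**Figure D1:**
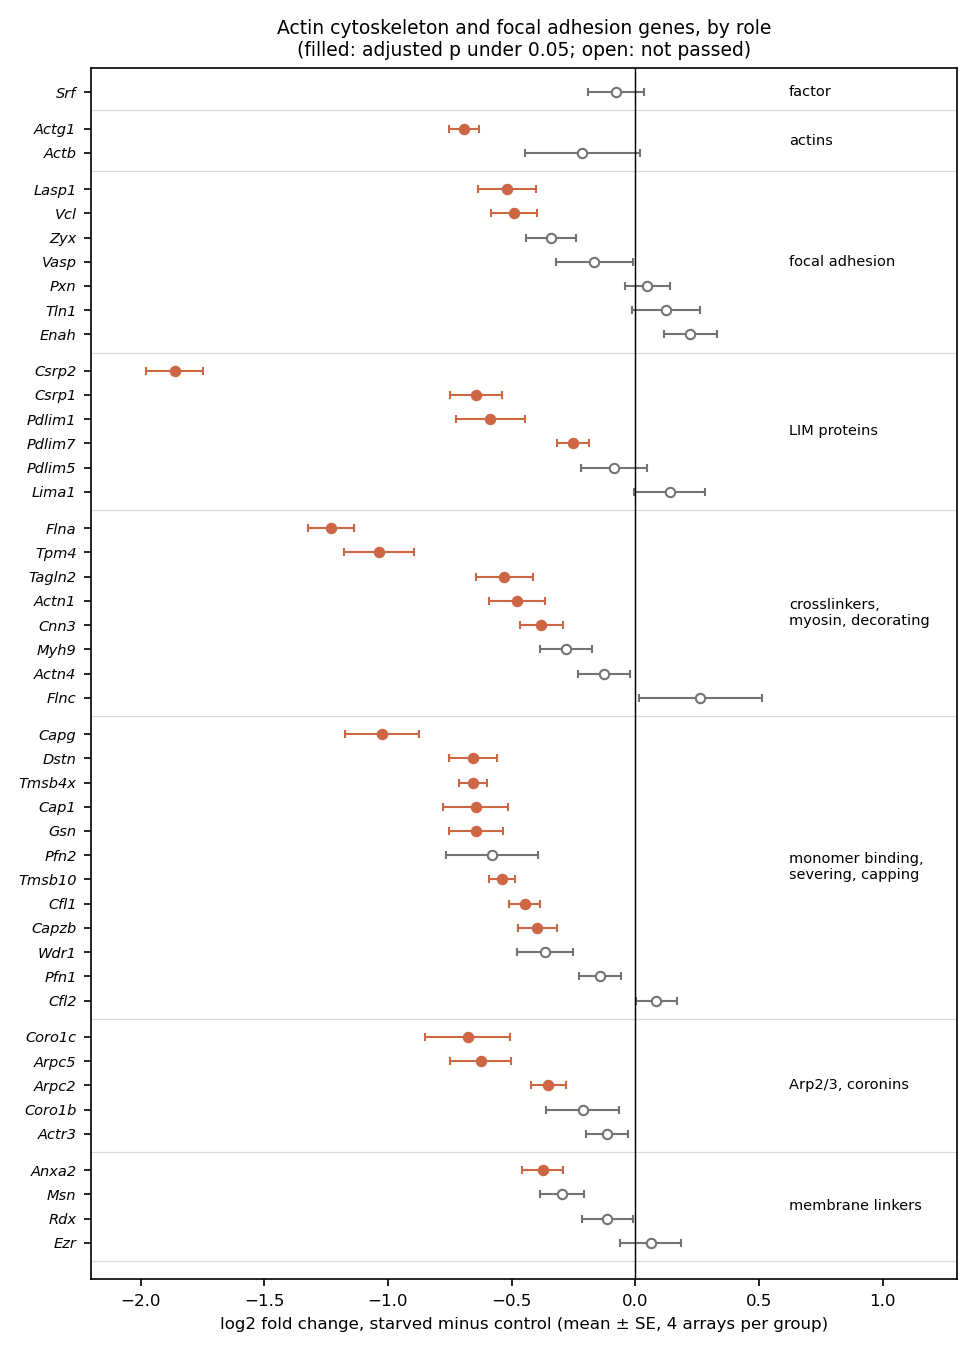
Log2 difference (starved minus control, x axis) of the 45 tested genes, grouped by role, with bars of 1 standard error (n = 4 arrays a group). Every gene marked as past the adjusted p of 0.05 lies left of 0, with Csrp2 at -1.86 and Flna at -1.23 the farthest.

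**Figure D2:**
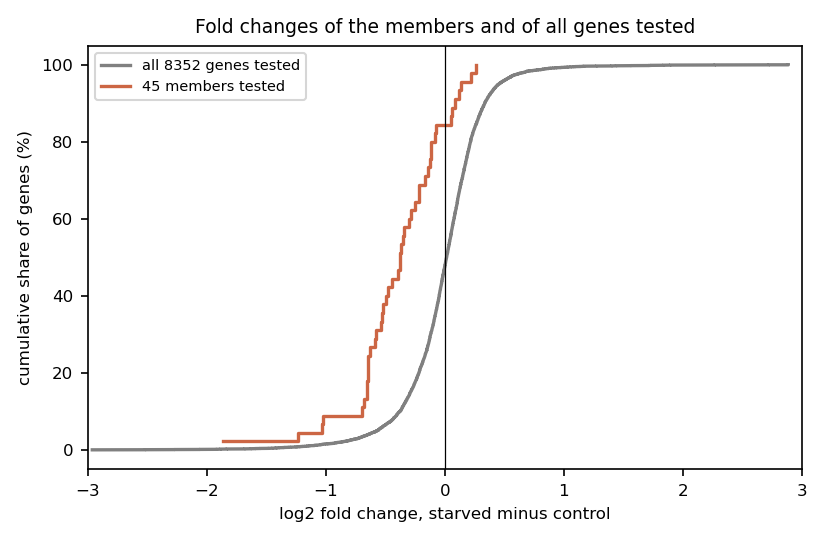
Distribution of log2 differences (starved minus control) of the 45 genes and of all 8352 tested genes. The median of the members is -0.37 and that of all tested genes is 0.015.

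The number of members lower was 19 to 26 as each array was left out in turn, and no member was higher in any of these fits. The deposited intensities had not been brought to a common brightness: trimmed mean intensities (2% dropped at each end) were 317 to 455 in control and 243 to 366 in starved arrays. Arrays were therefore quantile normalized, and the median log2 level of the members was 10.66 to 10.73 in the control arrays and 10.31 to 10.57 in the starved arrays. Without scaling, 29 members were lower and the median log2 difference was -0.73 for the members and -0.34 for all genes. Control B stood apart in RNA quality by the log2 ratio of the 3′ to the 5′ Gapdh control probe set, at 1.40. The other arrays lay between -0.23 and -0.04. The same ratio for Actb did not set it apart, at 0.32, with control D at 0.29 and starved G at 0.27. Control B was the lowest control for 22 of the 45 members and the highest for 12. Without control B 26 members were lower, the 24 above with Zyx and Vasp. In RNA from a whole dish, fewer cells of a type and less RNA per cell cannot be told apart.

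Srf, the transcription factor itself, did not pass the test. Its log2 levels were 9.22, 9.11, 9.14 and 9.01 in the control arrays (A to D) and 9.12, 9.18, 9.11 and 8.77 in the starved arrays (E to H), a difference of -0.08 ± 0.11 (starved minus control ± SE, adjusted p = 0.739). The groups overlapped. Its cofactors did not pass either, with log2 differences of -0.18 ± 0.15 for Mrtfa (adjusted p = 0.523) and 0.35 ± 0.26 for Mrtfb (adjusted p = 0.46). These became -0.33 for Mrtfa without control B (adjusted p = 0.125) and 0.09 for Mrtfb without starved E.

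The promoters of the members were read for the CArG box, since this element ties Srf to its target genes. RefSeq windows of 300 bases on GRCm38.p6, from 250 before to 50 after each gene's start, were found for 44 of the 49 members. Actb, Csrp2, Pxn, Coro1b and Ptk2 had no window and were not read. A box, defined as CC, then 6 bases that are each A or T, then GG, reads as a box on both strands, and boxes were counted once. It occurred in 4 of 44 members (9.09%) and in 488 of 27025 genes with a window (1.81%). Of the members called lower 2 of 23 had one (8.70%), Actg1 and Vcl, and of those tested and not called 2 of 18 (11.1%), Srf and Lima1. Both called and uncalled members held a box. The 100 bases that hold each box are printed 5′ to 3′ on the gene's strand, with the box in capitals.
Actg1, chr11:120348531-120348630, minus strand, first base of the box 90 bases before the start: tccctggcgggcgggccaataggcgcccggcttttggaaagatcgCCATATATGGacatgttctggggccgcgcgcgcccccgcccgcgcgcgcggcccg
Vcl, chr14:20929148-20929247, plus strand, 227 bases before the start: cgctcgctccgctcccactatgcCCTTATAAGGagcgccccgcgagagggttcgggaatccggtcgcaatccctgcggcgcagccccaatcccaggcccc
Srf, chr17:46556190-46556289, minus strand, 82 and 62 bases before the start: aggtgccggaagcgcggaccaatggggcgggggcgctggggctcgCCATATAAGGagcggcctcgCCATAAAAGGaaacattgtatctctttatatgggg
Lima1, chr15:99820150-99820249, minus strand, 47 bases before the start: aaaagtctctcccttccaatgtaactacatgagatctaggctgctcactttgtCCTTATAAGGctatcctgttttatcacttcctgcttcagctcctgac
The Srf window holds 2 boxes and the others 1. A match is a description of the letters in these windows, and boxes farther from the start were not read.

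Of the cytoplasmic actins Actg1 fell and Actb did not pass the test. Log2 levels of Actg1, gamma-actin, were 12.40, 12.58, 12.57 and 12.50 in controls A to D, against 11.76, 11.84, 11.84 and 11.83 in starved E to H. All starved arrays lay below all control arrays, with starved E the lowest. Actg1 fell by 0.69 ± 0.06 log2 units to 61.8% of control (adjusted p = 2.36e-05). Its probe set belongs to a class that can bind related transcripts. Among the other called members the same holds for the probe sets used for Cfl1, Tmsb10, Gsn, Cnn3, Lasp1 and Coro1c. Outside the members it holds for those of Acta2, Tuba1a and Parva, named below. Log2 levels of Actb, beta-actin, were 13.09, 12.06, 12.88 and 13.11 in the 4 controls (A to D), compared with 12.04, 12.65, 12.69 and 12.89 in the 4 starved arrays (E to H). The groups overlapped, and control B and starved E were both about 1 log2 unit below the highest arrays. The log2 difference was -0.22 ± 0.23 (adjusted p = 0.636), and without control B it was -0.46 (adjusted p = 0.112). A second Actb probe set gave -0.40 (adjusted p = 0.182). In that probe set control B was the highest array, at 11.58, with the other controls at 10.62 to 10.89. The Actb control probe sets, left out of the fit, had deposited 3′ intensities of 10110, 5763, 6951 and 10410 in controls A to D, against 4936, 5598, 6235 and 7033 in starved E to H. Set against each array's trimmed mean these became log2 ratios of 4.18 to 4.62 in control and 4.26 to 4.40 in starved arrays, which overlap.

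Of 7 tested genes for focal adhesion proteins 2, Vcl and Lasp1, fell, with a median log2 difference of -0.17. Vinculin, encoded by Vcl, links talin and actin at adhesions. Its log2 levels were 11.97, 11.76, 11.81 and 11.68 in the control arrays (A to D) and 11.13, 11.36, 11.24 and 11.52 in the starved arrays (E to H). The highest starved array lay below the lowest control. Vcl fell by 0.49 ± 0.09 log2 units (adjusted p = 0.00627), but a dimmer probe set gave 0.18 (adjusted p = 0.816), and the mean of both gave -0.16 (adjusted p = 0.686). Lasp1, a LIM and SH3 domain scaffold, had log2 levels of 9.10, 9.27, 9.05 and 9.27 in controls A to D, against 8.65, 8.40, 8.75 and 8.81 in starved E to H. Control and starved arrays were apart, with starved F the lowest. Lasp1 fell by 0.52 ± 0.12 log2 units (adjusted p = 0.015), a call lost without control D (adjusted p = 0.0509). Of its 8 tested probe sets 5 were lower, to a log2 difference of -1.31, and 2 lay above 0 at 0.58 (adjusted p = 0.0618) and 0.25 (adjusted p = 0.643).

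Zyxin, encoded by Zyx, a mechanosensitive adhesion protein, had a log2 difference of -0.34 ± 0.10 (adjusted p = 0.0564). It passed the threshold without control B (-0.40, adjusted p = 0.0293). Vasp, which elongates filaments at adhesions, was at -0.17 ± 0.15 (adjusted p = 0.574), and at -0.34 without control B (adjusted p = 0.0302). The talin gene Tln1 (0.12 ± 0.14, adjusted p = 0.649) and the paxillin gene Pxn (0.05 ± 0.09, adjusted p = 0.803) gave log2 differences close to 0. Enah, a relative of Vasp, had log2 levels of 10.50, 10.26, 10.64 and 10.66 in the 4 controls (A to D), compared with 10.59, 10.82, 10.65 and 10.89 in the 4 starved arrays (E to H). The groups overlapped and the difference was 0.22 ± 0.11 (adjusted p = 0.243), or 0.14 without control B. A second Enah probe set was the 1 member probe set called higher, at 0.33 on the log2 scale (adjusted p = 0.0384).

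Among the genes for LIM proteins of stress fibres 4 of 6 fell, with a median log2 difference of -0.42. Csrp2, a cysteine-rich LIM protein that binds alpha-actinin, had log2 levels of 9.77, 10.16, 9.88 and 9.92 in the control arrays (A to D) and 8.20, 7.92, 8.18 and 7.99 in the starved arrays (E to H). Every starved array was more than 1 log2 unit below every control array. Csrp2 fell by 1.86 ± 0.12 log2 units to 27.5% of control (adjusted p = 2.12e-06), farther than any other member. Its relative Csrp1 had log2 levels of 9.43, 9.52, 9.58 and 9.60 in controls A to D, against 9.06, 8.84, 8.95 and 8.69 in starved E to H. Starved arrays lay below control arrays throughout. Csrp1 fell by 0.64 ± 0.10 (adjusted p = 0.00227), while a second, dimmer probe set gave -0.35 (adjusted p = 0.537) and the mean of both missed the threshold (adjusted p = 0.0881).

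Pdlim1, a PDZ and LIM domain adaptor on alpha-actinin, had log2 levels of 10.83, 11.01, 10.80 and 10.66 in the 4 controls (A to D), compared with 9.86, 10.33, 10.58 and 10.18 in the 4 starved arrays (E to H). Starved G, the highest of its group, lay just below control D, the lowest control. Pdlim1 fell by 0.59 ± 0.14 log2 units (adjusted p = 0.0204), a call lost without control A (adjusted p = 0.0518). Pdlim7 fell by 0.25 ± 0.07 (adjusted p = 0.0313), and its second probe set by 0.99 (adjusted p = 0.000532). The mean of both was -0.62, and the call held in 9 of 19 alternative fits, that mean among them. Pdlim5, of the same family, had log2 levels of 9.75, 9.64, 9.74 and 9.94 in the control arrays (A to D) and 9.51, 9.58, 9.57 and 10.09 in the starved arrays (E to H). The groups overlapped and its difference was -0.08 ± 0.13 (adjusted p = 0.758), with 4 tested probe sets between -0.47 and 0.15, none called. Lima1, which stabilises actin bundles, was at 0.14 ± 0.14 (adjusted p = 0.622), and at 0.003 without control B.

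**Figure D3:**
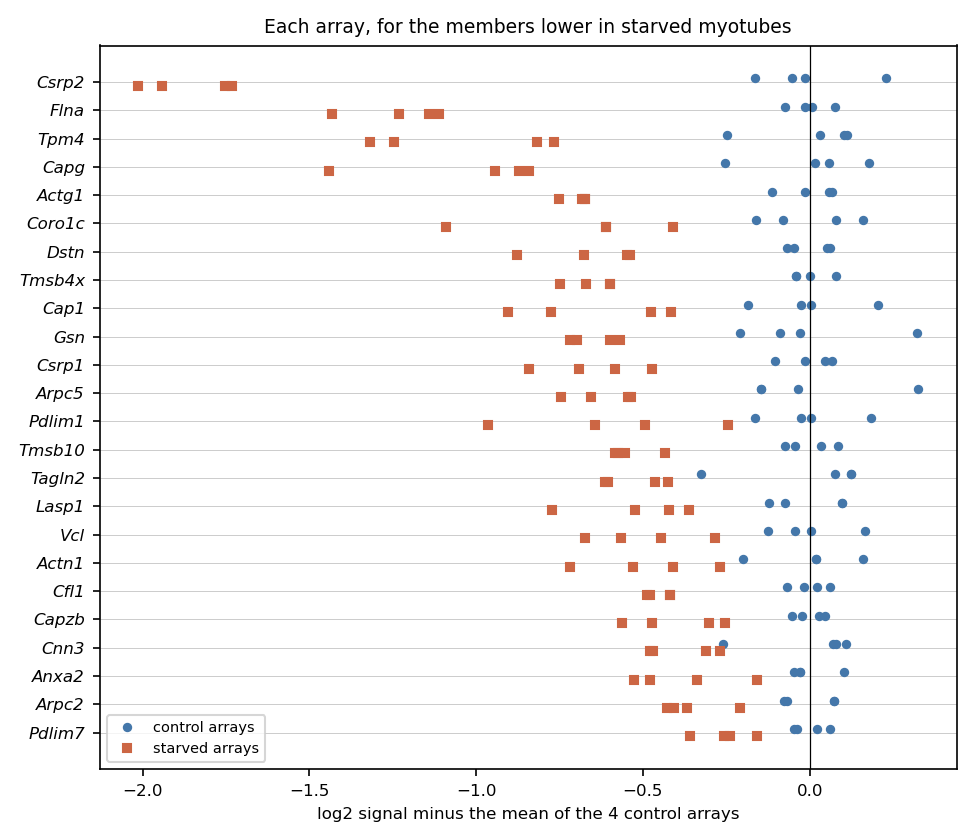
Log2 level of each array minus the mean of the 4 control arrays (x axis) for the 24 members called lower, 1 row a gene, with circles for control and squares for starved arrays. In no row does a starved array pass a control array to the right, with Cnn3 the closest, and the squares of Csrp2, whose mean difference is -1.86, lie farthest left.

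Of 8 tested genes for cross-linkers, myosin and filament-decorating proteins 5 fell, with a median log2 difference of -0.43. Filamin A, encoded by Flna, cross-links filaments and tethers them to integrins. Its log2 levels were 10.64, 10.49, 10.55 and 10.57 in controls A to D, against 9.45, 9.33, 9.42 and 9.13 in starved E to H. The groups were separated by about 1 log2 unit, with starved H the lowest. Flna fell by 1.23 ± 0.09 log2 units to 42.6% of control (adjusted p = 9.31e-06). Flnc, the muscle filamin, had log2 levels of 11.86, 10.66, 12.03 and 11.94 in the 4 controls (A to D), compared with 11.98, 11.87, 11.93 and 11.77 in the 4 starved arrays (E to H). Only control B was low, and the other 3 controls overlapped the starved arrays. The difference of 0.26 ± 0.25 (adjusted p = 0.577) became -0.06 without control B (adjusted p = 0.689).

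Tpm4, a tropomyosin of stress fibres, had log2 levels of 10.57, 10.85, 10.93 and 10.92 in the control arrays (A to D) and 10.05, 10.00, 9.50 and 9.57 in the starved arrays (E to H). Starved G and H were lower than E and F, and all 4 were below the controls. Tpm4 fell by 1.04 ± 0.14 log2 units to 48.8% of control (adjusted p = 0.000695). Tagln2, a calponin-family relative of transgelin, had log2 levels of 10.04, 10.09, 9.64 and 10.09 in controls A to D, against 9.50, 9.35, 9.36 and 9.54 in starved E to H. Control C was the lowest control and starved H the highest starved array, and they did not cross. Tagln2 fell by 0.53 ± 0.12 (adjusted p = 0.0139), and its second probe set was also called lower, by 0.86 (adjusted p = 0.00491).

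Actn1, the alpha-actinin of adhesions and stress fibres, had log2 levels of 10.65, 10.29, 10.51 and 10.51 in the 4 controls (A to D), compared with 10.08, 9.96, 9.77 and 10.22 in the 4 starved arrays (E to H). Control B at 10.29 was near starved H at 10.22, and the groups did not overlap. Actn1 fell by 0.48 ± 0.11 log2 units (adjusted p = 0.0195), and its other probe sets gave -0.58 (adjusted p = 0.0546) and -0.67 (adjusted p = 0.0587). The call was lost without control A, C or D or starved F, with adjusted p of 0.0537 to 0.0617. Cnn3, an acidic calponin, had log2 levels of 12.72, 12.38, 12.71 and 12.75 in the control arrays (A to D) and 12.37, 12.17, 12.33 and 12.16 in the starved arrays (E to H). Control B and starved E were nearly level, and the groups did not overlap. Cnn3 fell by 0.38 ± 0.09 (adjusted p = 0.0183), with all 6 probe sets below 0, 3 of them called and a mean of -0.61. The call was lost in 8 of 19 alternative fits. Actn4 (-0.12 ± 0.11, adjusted p = 0.528) and Myh9, the heavy chain of non-muscle myosin IIA (-0.28 ± 0.11, adjusted p = 0.131), did not pass the test on the log2 scale. Without control B the value of Actn4 was -0.22 (adjusted p = 0.109).

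Of 12 tested genes for proteins that bind monomers or cut or cap filaments 8 fell, with a median log2 difference of -0.56. Both beta-thymosins, which sequester actin monomers, fell. Log2 levels of Tmsb4x were 12.99, 12.87, 12.87 and 12.91 in controls A to D, against 12.24, 12.31, 12.16 and 12.31 in starved E to H. The groups were tight and far apart. Tmsb4x fell by 0.66 ± 0.06 log2 units (adjusted p = 2.5e-05). Log2 levels of Tmsb10 were 13.85, 13.69, 13.80 and 13.72 in the 4 controls (A to D), compared with 13.33, 13.18, 13.19 and 13.21 in the 4 starved arrays (E to H). Again no starved array reached a control. Tmsb10 fell by 0.54 ± 0.05 (adjusted p = 7.09e-05), and its other probe sets gave -0.38 (adjusted p = 0.0137) and -0.17 (adjusted p = 0.127). With arrays centred on their median or 75th percentile the call of Tmsb10 was lost (adjusted p = 0.0534 and 0.0575).

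Of 4 genes for proteins that cut filaments or pull monomers off them 3 fell. Cfl1, the cofilin of non-muscle cells, had log2 levels of 11.50, 11.59, 11.63 and 11.55 in the control arrays (A to D) and 11.09, 11.15, 11.15 and 11.08 in the starved arrays (E to H). Both groups were tight and did not overlap. Cfl1 fell by 0.45 ± 0.06 log2 units (adjusted p = 0.000779), and a second probe set gave -0.29 (adjusted p = 0.211). Cfl2, the muscle cofilin, had a log2 difference of 0.08 ± 0.08 (adjusted p = 0.594). Dstn, destrin of the same family, had log2 levels of 10.16, 10.14, 10.26 and 10.27 in controls A to D, against 9.33, 9.53, 9.67 and 9.66 in starved E to H. Starved E was the lowest array and the groups were apart. Dstn fell by 0.66 ± 0.10 (adjusted p = 0.00124). Gsn, gelsolin, had log2 levels of 11.22, 11.63, 11.10 and 11.28 in the 4 controls (A to D), compared with 10.71, 10.74, 10.61 and 10.59 in the 4 starved arrays (E to H). Control B was the highest array and all starved arrays were below all controls. Gsn fell by 0.65 ± 0.11 (adjusted p = 0.00275), and 4 of its 5 tested probe sets were called lower.

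Capg, which caps the fast-growing ends of filaments, had log2 levels of 9.58, 9.31, 9.74 and 9.62 in the control arrays (A to D) and 8.62, 8.69, 8.72 and 8.12 in the starved arrays (E to H). Starved H was far below the other starved arrays, and all 4 were below the controls. Capg fell by 1.03 ± 0.15 log2 units to 49.1% of control (adjusted p = 0.00118). Capzb, the beta subunit of capping protein, had log2 levels of 11.55, 11.57, 11.47 and 11.50 in controls A to D, against 11.27, 11.05, 11.22 and 10.96 in starved E to H. The groups did not overlap. Capzb fell by 0.40 ± 0.08 (adjusted p = 0.0079), a call lost on centring to the median or 75th percentile (adjusted p = 0.0536 and 0.0591), and 2 other probe sets gave -0.25 (adjusted p = 0.182) and -0.39 (adjusted p = 0.177). Cap1, a cyclase-associated protein that recycles monomers, had log2 levels of 10.08, 10.28, 9.89 and 10.05 in the 4 controls (A to D), compared with 9.60, 9.66, 9.30 and 9.17 in the 4 starved arrays (E to H). Starved arrays were below control arrays throughout. Cap1 fell by 0.65 ± 0.13 (adjusted p = 0.00832), and a dimmer probe set gave -0.39 (adjusted p = 0.286). Wdr1, the helper of cofilin, was at -0.37 ± 0.11 on the log2 scale (adjusted p = 0.064).

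Profilins feed monomers to growing filaments, and neither gene was called. Pfn1 was at -0.14 ± 0.08 on the log2 scale (adjusted p = 0.348). Log2 levels of Pfn2, which is dim, were 7.08, 6.72, 6.99 and 7.03 in the control arrays (A to D) and 6.36, 6.67, 6.24 and 6.24 in the starved arrays (E to H). No starved array reached a control, although control B was close to starved F. The difference of -0.58 ± 0.18 did not pass the threshold (adjusted p = 0.0747).

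Of the Arp2/3 complex and the coronins 3 of 5 tested genes fell, with a median log2 difference of -0.35. Arpc5, a small subunit of the complex, had log2 levels of 9.31, 9.67, 9.20 and 9.20 in controls A to D, against 8.80, 8.69, 8.81 and 8.60 in starved E to H. Control B was the highest array and no groups crossed. Arpc5 fell by 0.62 ± 0.12 log2 units (adjusted p = 0.00751). Arpc2, which contacts the mother filament, had log2 levels of 12.02, 11.88, 11.87 and 12.02 in the 4 controls (A to D), compared with 11.54, 11.74, 11.58 and 11.52 in the 4 starved arrays (E to H). Starved F was the highest starved array and still below control C. Arpc2 fell by 0.35 ± 0.07 (adjusted p = 0.00829), just missing the threshold without the intensity trend (adjusted p = 0.0502).

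Actr3, the Arp3 subunit, had log2 levels of 10.69, 10.68, 10.73 and 10.70 in the control arrays (A to D) and 10.72, 10.51, 10.42 and 10.71 in the starved arrays (E to H). The groups overlapped, with a difference of -0.11 ± 0.09 (adjusted p = 0.473), but a probe set nearly as bright was called lower by 0.50 (adjusted p = 0.00141). Coro1c, a coronin of lamellipodia, had log2 levels of 7.75, 7.59, 7.83 and 7.51 in controls A to D, against 7.26, 7.06, 7.06 and 6.58 in starved E to H. Starved H was the lowest array and the groups did not overlap. Coro1c fell by 0.68 ± 0.17 log2 units (adjusted p = 0.0279), but its other tested probe sets gave -0.12 (adjusted p = 0.731) and 0.18 (adjusted p = 0.564) and the mean of all 3 was -0.21 (adjusted p = 0.376). Leaving out control A or C or starved F or G also ended the call, with adjusted p of 0.0513 to 0.0868. Coro1b was at -0.21 ± 0.15 (adjusted p = 0.428).

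Of 4 tested genes for membrane linkers 1 fell, with a median log2 difference of -0.21. Anxa2, an annexin that joins actin to membranes, had log2 levels of 12.15, 12.13, 12.28 and 12.15 in the 4 controls (A to D), compared with 11.84, 11.65, 12.02 and 11.70 in the 4 starved arrays (E to H). Starved G at 12.02 was the highest starved array and control B at 12.13 the lowest control. Anxa2 fell by 0.37 ± 0.08 log2 units (adjusted p = 0.0143), a call lost in 4 alternative fits (adjusted p = 0.063 to 0.132). Its dimmer probe set gave -0.54 (adjusted p = 0.353). The ERM proteins tie actin to the plasma membrane, and none of their genes was called. Moesin, encoded by Msn, had log2 levels of 11.81, 11.94, 11.71 and 11.79 in the control arrays (A to D) and 11.56, 11.32, 11.48 and 11.72 in the starved arrays (E to H). The groups overlapped. Its log2 difference was -0.30 ± 0.09 (adjusted p = 0.0568), with 0.06 (adjusted p = 0.95) in a dimmer probe set. Ezr (0.06 ± 0.12, adjusted p = 0.814) and Rdx (-0.11 ± 0.10, adjusted p = 0.559) gave log2 differences near 0.

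Across the members 30 genes had more than 1 tested probe set, and 25 of them had all in 1 direction, whether above or below 0. Of all 102 tested member probe sets 37 were lower (36.3%) and 1 higher (0.98%), against 6.23% lower and 4.37% higher of 13575 probe sets. Of the 14 called genes with more than 1, 11 had all below 0, and Coro1c, Lasp1 and Vcl were mixed. Only Pdlim7 and Tagln2 of these 14 had every tested probe set called. The other 10 called genes rest on 1 tested probe set.

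Related genes were then set side by side in 11 pairs, each as the log2 difference between the genes within an array, compared between the groups by an exact two-sided permutation test over 70 labellings, whose smallest p is 0.0286. No pair passed after Benjamini-Hochberg adjustment over the 11. In 4 pairs the groups did not overlap and the exact p was 0.0286 (adjusted p = 0.0786). Csrp2 minus Csrp1 changed by -1.22, from a mean of 0.40 ± 0.16 (SD, n = 4) in control to -0.81 ± 0.10 in starved arrays. Flna minus Flnc changed by -1.49, and by -1.20 without control B, where 35 labellings allow no exact p below 0.0571. Cfl1 minus Cfl2 changed by -0.53 and Pfn1 minus Pfn2 by 0.44. In each of these pairs every starved array lay outside the range of the controls.

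For the other 7 pairs the arrays of the groups overlapped. The change was -0.48 for Actg1 minus Actb (exact permutation p = 0.171, adjusted 0.209), and -0.21 without control B. It was -0.47 for Coro1c minus Coro1b (exact permutation p = 0.0571, adjusted 0.126) and -0.35 for Actn1 minus Actn4 (exact permutation p = 0.0857, adjusted 0.157). The beta-thymosins Tmsb4x and Tmsb10 differed by -0.12 in their change (exact permutation p = 0.114, adjusted 0.157). The ERM pairs changed by -0.36 for Msn minus Ezr, -0.18 for Msn minus Rdx and 0.18 for Ezr minus Rdx, with exact permutation p of 0.114, 0.286 and 0.286. Without control B the change of Msn minus Rdx was -0.10. When the probe sets of each gene were averaged, Coro1c minus Coro1b came to 0.007, Msn minus Rdx to 0.18, Msn minus Ezr to -0.18 and Tmsb4x minus Tmsb10 to -0.29. A p above the threshold does not show that these relatives changed alike.

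**Figure D4:**
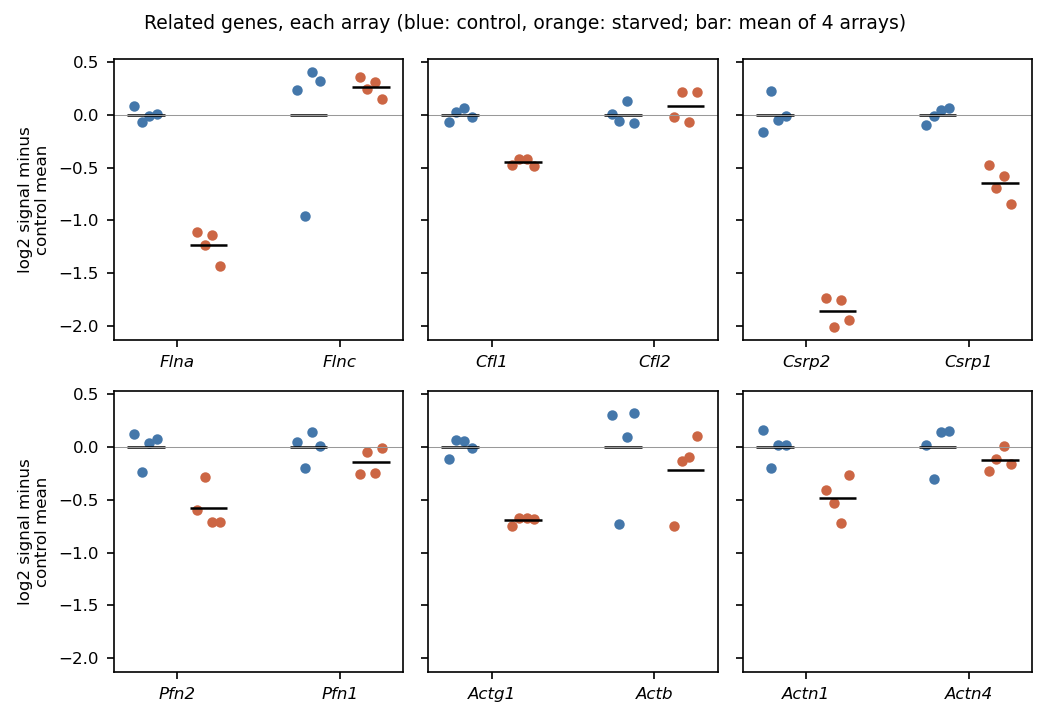
Log2 level minus the gene's control mean (y axis) in each array for 6 of the pairs of related genes, with blue points for control arrays, orange points for starved arrays and bars for the mean of 4 arrays. The starved mean is -1.86 for Csrp2 and -0.64 for Csrp1, and 1 control array of Flnc, control B, lies far below the others.

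Other genes of the same machinery were taken from lists by function, also chosen with earlier results of these data known. Of 29 further cross-linker and stress fibre genes 11 fell and 3 rose, with a median log2 difference of -0.20. The falls were led by Tagln, the smooth muscle transgelin (-2.65 ± 0.15, adjusted p = 1.09e-06), Myl9, a regulatory light chain of non-muscle and smooth muscle myosin (-1.99 ± 0.14, adjusted p = 5.46e-06), and Actg2, a smooth muscle actin (-1.75 ± 0.17, adjusted p = 5.9e-05). The genes that rose were Actn2, the alpha-actinin of sarcomeres (0.58 ± 0.10, adjusted p = 0.00255), Csrp3, the muscle LIM protein (0.56 ± 0.11, adjusted p = 0.00791), and Tpm3, a tropomyosin (0.66 ± 0.11, adjusted p = 0.003). They were named after their values were seen, and on unscaled arrays none of the 3 passed (adjusted p of 0.299 to 0.494). Tpm3 also missed the threshold when its probe sets were averaged, at 0.20 (adjusted p = 0.186). In the alpha-actinin family Actn1 was lower, Actn4 was not called, Actn2 was higher and Actn3, the other sarcomeric member, was lower (-0.20 ± 0.05, adjusted p = 0.0206), a call that held in 11 of 19 alternative fits.

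Also named after their values were seen, Pdlim2 (-0.97 ± 0.10) and Pdlim4 (-0.81 ± 0.13) fell on the log2 scale, with adjusted p of 0.000127 and 0.00244, whereas Pdlim3 was at 0.13 ± 0.06 (adjusted p = 0.191). Cnn2, a calponin beside Cnn3, fell by 1.22 (adjusted p = 1.08e-05). Of 27 further Srf targets, which share 9 genes with the cross-linker list, 11 fell and 2 rose, with a median of -0.18. Tagln, Myl9 and Actg2 led these too. The 2 that rose were Fhl1, a muscle LIM protein (0.54 ± 0.06), and Ier2, an immediate early gene (0.44 ± 0.10), and neither passed on unscaled arrays (adjusted p = 0.324 and 0.877). Ier2 also missed the threshold without starved E (adjusted p = 0.054).

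Of 20 other focal adhesion genes 4 fell and none rose, with a median log2 difference of -0.22. They were Parva, which binds integrin-linked kinase (-0.82 ± 0.12, adjusted p = 0.00155), Lims2 (-0.69 ± 0.20, adjusted p = 0.0479), Tes (-0.50 ± 0.13, adjusted p = 0.0284) and the kindlin gene Fermt2 (-0.44 ± 0.11, adjusted p = 0.0227). Parva alone of the 4 stayed past the threshold as each array was left out. Of 17 other actin assembly genes 11.8% were called, near the 11.2% of all tested genes, with a median log2 difference of -0.08. Evl, a relative of Vasp, fell (-0.63 ± 0.17, adjusted p = 0.0427) and Arpc5l, a paralog of Arpc5, rose (0.34 ± 0.08, adjusted p = 0.0189). Both calls were lost when control C or D or starved E was left out, that of Evl also without control B or starved H and that of Arpc5l without control A or starved F (adjusted p of 0.0529 to 0.0994). The log2 difference of Arpc5l was -0.05 on unscaled arrays (adjusted p = 0.872).

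Of 17 tubulin and intermediate filament genes 9 fell and none rose (52.9%), with a median log2 difference of -0.30. They were led by the tubulins Tubb6 (-0.91 ± 0.09, adjusted p = 6.49e-05) and Tuba1a (-0.72 ± 0.08, adjusted p = 0.000211) and by nestin, Nes (-0.58 ± 0.17, adjusted p = 0.0491), whose call held in 6 of 19 alternative fits. Among the members the share called lower was 53.3%.

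**Figure D5:**
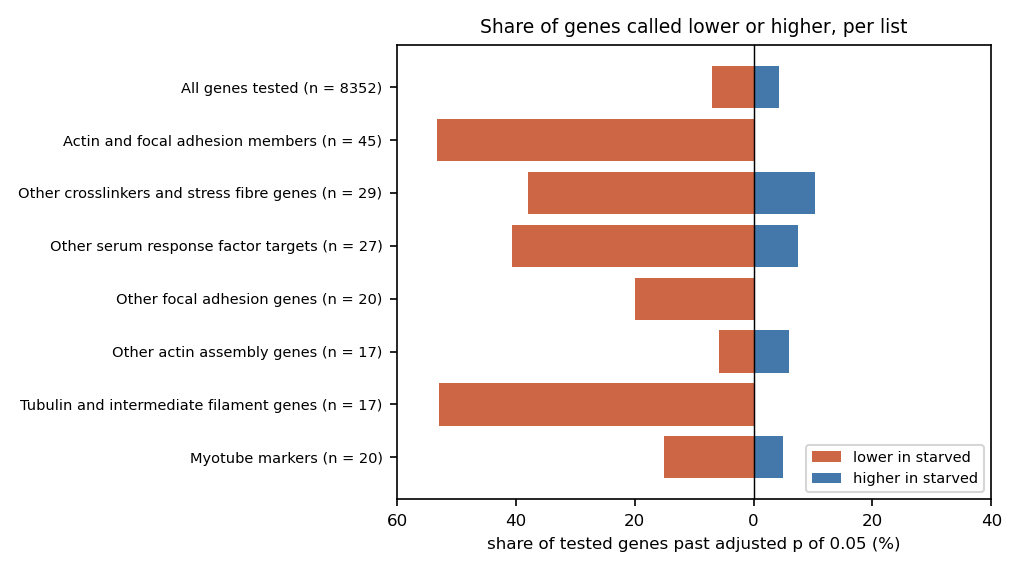
Share of tested genes (x axis, percent) called lower (left of 0) or higher (right of 0) at an adjusted p of 0.05, for all tested genes, the members and 6 lists by function. The members are at 53.3% lower and 0% higher, and tubulin and intermediate filament genes at 52.9% lower.

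Markers of cell types moved in part with the members. All 20 myotube markers were bright enough to be tested, with mean log2 levels in control arrays from 10.26 (Myh8) to 13.71 (Mylpf). Of these 3 fell, Actc1 (-0.24 ± 0.07, adjusted p = 0.0482), Des (-0.22 ± 0.05, adjusted p = 0.0153) and Tnnt1 (-0.16 ± 0.04, adjusted p = 0.0496), and 1, Myh8, rose (1.16 ± 0.08, adjusted p = 3.38e-06). The 3 falls were lost on centring to the median or the 75th percentile, where Tnnt1 turned to 0.025 (adjusted p = 0.925). Over 19 alternative fits the call held in 8 for Actc1, 13 for Des and 7 for Tnnt1. Leaving out any control or starved F, G or H ended that of Actc1 (adjusted p of 0.0557 to 0.131), leaving out control C that of Des (0.0521), and leaving out any array but control B or starved G that of Tnnt1 (0.0955 to 0.134). The median log2 difference of the 20 was -0.10, and 16 of them lay below 0. The groups did not overlap for 6 of the 20 (30%), 2 higher and 4 lower in starved arrays, against 18.5% of all tested genes. The summed normalized signal of the 20 genes was 165235 to 170477 in control and 156272 to 161783 in starved arrays. Of 11 tested fibroblast markers 4 fell, Postn (-2.42 ± 0.15), Pdgfrb (-1.83 ± 0.11), Col1a1 (-1.15 ± 0.08) and Vim (-0.30 ± 0.05), and Dcn rose (0.94 ± 0.14). The call of Dcn was lost without scaling (adjusted p = 0.0923), and that of Vim in 4 alternative fits (adjusted p of 0.0609 to 0.521). The median log2 difference of the 11 was -0.075, and 5 of them lay above 0, with Dcn, Pdgfra (0.56, adjusted p = 0.0776) and Lum (0.34, adjusted p = 0.282) higher in every starved array than in any control. The summed fibroblast level, to which bright genes such as Vim add most, was 21685 to 23538 in control and 17259 to 19569 in starved arrays.

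Of 7 tested smooth muscle markers, of which 5 are also in the cross-linker list, 5 fell. The summed level of the 7 was 22216 to 23290 in control and 16466 to 17226 in starved arrays. Acta2 and Des add most to this sum, with mean log2 levels of 13.22 and 13.03 in control arrays. The probe set of Acta2 is of the class that can bind related transcripts. Acta2 fell by 0.30 ± 0.05 log2 units (adjusted p = 0.00347), a call that held in 16 of 19 alternative fits. It was lost on centring to the median or 75th percentile (adjusted p = 0.341 and 0.405). Des is also among the myotube markers. The defining smooth muscle genes Cnn1, Myh11 and Lmod1 were too dim to be tested. Of 8 tested markers of undifferentiated or dividing cells 1, Cdk1, fell (-0.82 ± 0.12, adjusted p = 0.00159). That is 12.5%, against 6.94% of all tested genes. All 8 lay below 0, with a median log2 difference of -0.29. Top2a had the largest difference and was lower in every starved array than in any control, but was not called (-0.98 ± 0.38, adjusted p = 0.142). The summed level of the 8 was 1371 to 1616 in control and 940 to 1230 in starved arrays. Myf5, Fap, Bub1 and Birc5 were too dim to be tested. The summed levels of these 4 lists were lower in every starved array than in any control, although 5 of the 11 fibroblast markers lay above 0, and their part in the members' falls was not tested. The sums were taken on quantile normalized arrays only and were not repeated with other scaling. For the myotube list the gap was small against the sum, and its called falls were lost with centred arrays.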

How the data were processed

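Total RNA of 4 control and 4 starved C2C12 myotube samples was hybridised to Affymetrix mouse arrays, 1 array a sample. The authors deposited 1 intensity per probe set and array on a linear scale. The software and scaling behind these intensities are not given in the sources used here, and the table has no detection calls, so nothing is said of background. Groups and replicate letters were taken from the labels.

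Before log2 each intensity was raised by 11, which is the 10th percentile over the table, and arrays were quantile normalized. Log2 differences therefore understate the change of dim genes. After removal of 64 control probe sets, the 13575 probe sets whose mean log2 level exceeded 6.62 (the 40th percentile) were tested in limma 3.58.1 under R 4.3.3, by lmFit and eBayes with trend. P-values were adjusted by Benjamini-Hochberg over these probe sets, and 0.05 was the threshold. A gene was its brightest tested probe set with 1 symbol in the 2016 platform annotation, updated by gene number through RefSeq (GRCm38.p6). Differences between related genes were tested with exact permutations in Python 3.11.15. The limma fit was checked on simulated data.

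The members, their roles and the other gene lists were chosen with earlier results of these data known, so their directions are not independent evidence. Values in every array are given for up to 3 called members of each role with the largest change and for members whose probe sets disagree in direction or call. Some others were added after their values were seen: Srf, Actb, Flnc and Pfn2. From every other list reported up to 3 called genes with the largest change are named. Genes outside this rule, named after their values were seen, are Pdlim2, Pdlim3, Pdlim4, Cnn2, Csrp3, Actn2, Actn3, Tpm3, Fhl1, Ier2, Mrtfa, Mrtfb, Fermt2, Vim, Pdgfra, Lum, Tnnt1 and Dcn. Acta1, Acta2, Mylpf, Top2a and Tpm1 were named in the same way. A further list of genes is not reported here. Alternatives changed the scaling, the offset, the brightness filter, the variance model, the array weights and the choice of probe set, and left out each array in turn. The letters of the arrays differ between the groups and pair nothing.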

Additional observations from a re-analysis of the deposited data

Results flagged for a closer look

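In groups of 4 arrays, the highest or lowest array was set apart from the other 3 where its gap to the nearest divided by the group's range was above Dixon's 95% critical value, which chance gives for about 1 in 20 groups. Of 166 groups looked at 14 passed, and 8 of these were among the 90 groups of members. Control B was the array set apart in 7 of the 14 and in 3 of the 8.

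Among the members control B was the low array for Vasp (log2 9.67), Flnc (10.66) and Cnn3 (12.38). Control C was the low control for Tagln2 (log2 9.64) and the high control for Anxa2 (12.28). Starved E was the low array for Actg1 (log2 11.76), and starved H was low for Capg (8.12) and high for Pdlim5 (10.09).

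Outside the members control B was the high control for Nes (log2 12.33) and the low control for Cdk1 (7.97), Acta1 (13.45) and Mrtfa (8.92). Starved F was low for Tpm1 (log2 12.81), and starved G was high for Tnnt1 (log2 13).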

How the results depend on the processing

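No member was higher under any of the 19 alternatives. As reported 24 members were lower, and the alternatives gave 29 without scaling, 19 and 18 with arrays centred on the median or the 75th percentile, 24 with no offset or a larger one, 22 with no brightness filter, 25 of 43 with a stricter filter, 21 without the intensity trend, 24 with robust variances, 27 with array weights and 21 when the probe sets of each gene were averaged. Leaving out each array in turn gave 19 to 26. The median log2 difference of the members was -0.73 without scaling, where the median of all genes was -0.34, and members minus all genes stayed between -0.36 and -0.42 in every alternative. The 7 members with differences above 0, of which none was called, were all below 0 without scaling, and Flnc, Tln1 and Ezr were also below 0 without control B (-0.06, -0.02 and -0.001), where Lima1 came to 0.003. Among the called genes named, Arpc5l turned to -0.045 without scaling and Tnnt1 to 0.025 with centring on the 75th percentile, and no other turned. No paired analysis was possible because the replicate letters A to D and E to H share no label across the groups. The number of arrays limits the precision, and the cause of lost calls was not tested.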
